A study of Mus musculus with 12 samples.

Results

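The tumour necrosis factor (TNF) superfamily consists of trimeric ligands, most of them made as membrane proteins, and the TNF receptor superfamily of the cell surface proteins that bind them. The genes described here are those whose transcript cluster (the set of probes that the array sums into 1 gene-level value) carried exactly 1 gene symbol and whose symbol was a numbered Tnfsf or Tnfrsf name or that of a family member with another name (Tnf, Lta, Ltb, Fas, Fasl, Cd40, Cd40lg, Cd70, Ngfr, Relt and Eda2r). This rule gave 37 genes, 15 ligands and 22 receptors, of the 14860 genes with exactly 1 symbol, and each was measured by 1 transcript cluster. Cd27 and Ltbr, which the rule also names, had no transcript cluster of their own here, and Tnfsf12, Tnfsf13, Tnfrsf13c, Tnfrsf22 and Tnfrsf23 shared theirs with another gene, so none of these was counted as a member.

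The 12 arrays measured RNA of bone marrow derived macrophages (BMDMs), which are macrophages grown in culture from marrow precursors, of male Balb/c mice 8 to 9 weeks old. The cells were grown in 10000 U/ml of Csf1, the growth factor that drives marrow cells to become macrophages, and on day 7 received recombinant mouse Ifn-β at 10 U/ml, one of the type I interferons. Arrays 2 and 4 held cells collected before treatment (0 h), arrays 5 and 8 cells at 1 h after it, arrays 10 and 12 cells at 2 h, arrays 15 and 16 cells at 4 h, arrays 18 and 23 cells at 8 h, and arrays 17 and 22 cells at 24 h. The labels call the 2 arrays of a time biological replicates and also give separate wells as their source, so the p-values measure the spread between such samples, which may be technical. All groups shared the strain, the sex and Csf1. No untreated cultures were collected at the later times, so Ifn-β and time in culture cannot be told apart.

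Members of the family fall into 3 broad kinds by what they do. Receptors with a death domain, such as Fas and Tnfrsf1a, can recruit Fadd and Casp8 and start cell death, receptors that bind TRAF adaptors, such as Cd40, activate NF-κB and kinases, and decoy receptors such as Tnfrsf11b bind ligand without signalling. Ligand and receptor are often made by different cells. In macrophages the family is known for secreted Tnf and for the receptors through which T cells signal back, foremost Cd40.

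Values are log2 levels made by the robust multi-array average (RMA), so a difference of 1 is a doubling, and the number of arrays limits their precision. Changes were tested between times for 1 gene and never between genes, whose probes differ. Levels of markers and of some members were set beside array medians and other markers as a rough guide only. A gene is said to be called, to have risen or to have fallen where limma, a linear model fitted over all 23332 transcript clusters with 1 estimate of spread per cluster, gave a two-sided p under 0.05 after adjustment by Benjamini-Hochberg, and where the levels differed 1.5-fold or more.

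The array medians lay between 5.84 and 5.90 and the upper quartiles between 7.77 and 8.15, lowest on array 12. The 2 arrays of a time differed by a median of 0.13 to 0.17 per transcript cluster, except at 2 h, where they differed by 0.30. Ifit1 and Irf7, a pair of genes that type I interferon induces, rose at every time, by 4.84 and 2.53 at 4 h (adjusted p = 7.5e-07 and 8.25e-06). The 6 measured macrophage markers, which included Cd68, Csf1r, Adgre1 and Itgam, had a median level of 11.33. Of 31 markers of 9 other cell types, 20 lay below the median of all transcript clusters. The 11 at or above it included Cd28 (mean over all arrays 9.43), the megakaryocyte gene Pf4 (8.96), Kdr (8.58) and the osteoclast gene Ctsk (7.95). Among the 31 markers, the T cell gene Cd28 fell by 0.64 at 4 h (adjusted p = 0.0343) and the endothelial gene Kdr rose by 3.47 (adjusted p = 1.31e-06). The other T cell markers measured, Cd3e and Cd3g, differed by 0.11 and -0.01 and were not called. The other endothelial markers, Cdh5 and Pecam1, differed by 0.515 and 0.28 and were not called. The summed level of the 3 T cell markers went from between 18.4 and 18.6 at 0 h to between 17.8 and 18.1 at 4 h. That of the 3 endothelial markers, moved mostly by Kdr, went from between 16.3 and 16.4 to between 20.5 and 20.8. The macrophage marker Fcgr1 also rose, by 2.43. Sums moved without a called gene too. That of the 4 neutrophil markers was lower on both 4 h arrays than on both 0 h arrays. Among them S100a8 and S100a9 differed by -0.75 and -0.58 (adjusted p = 0.11 and 0.171), and Elane and Mpo by 0.00 and -0.01. The sum of the 3 natural killer (NK) cell markers went from between 12.7 and 12.9 at 0 h to 13.2 at 4 h. The part of other cells in the results below was not tested.

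The changes after Ifn-β were mostly rises, which had their highest mean at 4 h and were no longer called at 24 h. At 1 h, 2 of the 37 members had risen (5.41%), where 0.467% of all transcript clusters were called up and 0.0814% down. This count was 1 (Tnfsf10) with any single array but 10 and 12 left out and 0 in a fit of only the 2 groups compared. It was 7 by the same fold and an unadjusted p under 0.05. By 2 h there were 6 (16.2%, against 1.54% up and 0.621% down), and at 4 h 9 (24.3%, against 3.59%). One member, Relt, had fallen at 4 h (2.7%, against 3.95% of all transcript clusters called down). The count of risen members was 4 at 8 h (10.8%, against 1.5% up and 0.544% down). At 24 h limma called 0 members in either direction, against 0.613% of transcript clusters up and 0.836% down, and 4 passed upward by the same fold and an unadjusted p under 0.05. Without array 10 or 12, 1 member was called up at 24 h (Tnfsf18). No member fell at 1, 2, 8 or 24 h, where 1, 0, 0 and 0 passed downward by the same fold and an unadjusted p under 0.05. The median change of the 37 at 4 h was 0.14, beside -0.05 over the 14860 genes, and 27 of the 37 had no call then.

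**Figure D1:**
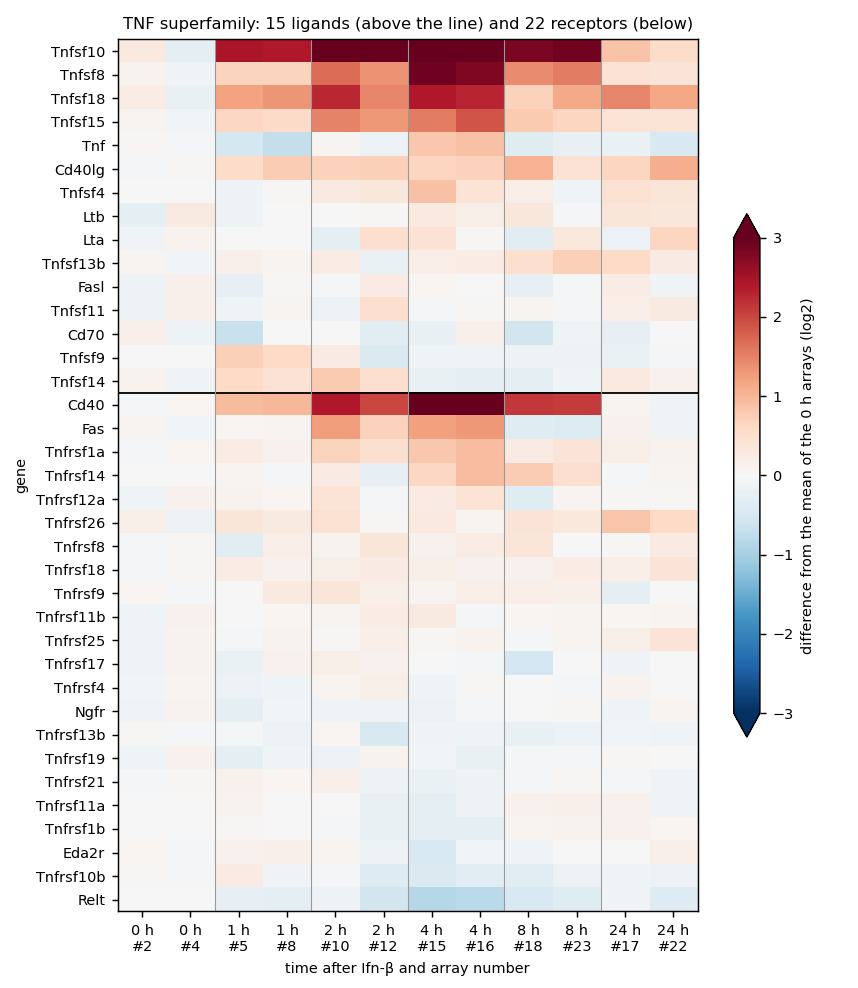
Level of each of the 37 members on each of the 12 arrays, as the difference from the mean of the 2 arrays at 0 h (log2, colour, which saturates at 3 in either direction). Rows are genes ordered within ligands and receptors by their change at 4 h, and columns are arrays in order of time. Tnfsf10, Tnfsf8, Tnfsf18, Tnfsf15, Cd40 and Fas stand out in red at 2 and 4 h, and most rows stay pale.

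Of the 15 ligands, 5 rose at 4 h (Tnfsf10, Tnfsf8, Tnfsf18, Tnfsf15 and Tnf), and of the 22 receptors 4 rose (Cd40, Fas, Tnfrsf1a and Tnfrsf14). All 9 had their highest mean at 4 h. Cd40 and Tnfsf10 were first called at 1 h, Fas, Tnfsf8, Tnfsf15 and Tnfsf18 at 2 h, and Tnf, Tnfrsf1a and Tnfrsf14 at 4 h, as was Relt in the other direction. At 24 h all 9 lay below their 4 h arrays, and 8 of the 9 had fallen by the test, Tnfsf18 being the exception (-1.03, adjusted p = 0.0574). The 9 were picked by their 4 h arrays, so a highest mean then and a later drop are partly built in. No share of all transcript clusters was counted for 24 h against 4 h.

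The promoters of the risen members were read from RefSeq (build GRCm38.p6) as the 250 bases before and the 50 after a start that the table gives for the gene, to see which carry the short sequences that interferon-activated factors bind. Of the 37 members, 29 had an entry, and so did 8 of the 9 that rose at 4 h, the ninth being Cd40. Both strands were searched for the core of the interferon-stimulated response element (ISRE), GAAANNGAAA, which STAT and IRF factors bind, for the gamma-activated sequence (GAS), TTCNNNGAA, a STAT dimer site that reads the same on both strands, and for the NF-κB consensus. These occurred in 3.44%, 8.3% and 8.46% of the 32851 promoters of the table. Among 33 promoters of the members they occurred in 4, 9 and 4, and among the 8 promoters of risen members in 1, 2 and 0. A match is a description of letters and not a site shown to be used, and a promoter without one says nothing of the factor. The 3 risen members with a match and Tnfsf10, the member that rose most, are shown, each written 5′ to 3′ on the strand of the gene, with the match in capitals (none in Tnfsf10).
Tnfsf10, chr3:27316827-27317126, plus strand: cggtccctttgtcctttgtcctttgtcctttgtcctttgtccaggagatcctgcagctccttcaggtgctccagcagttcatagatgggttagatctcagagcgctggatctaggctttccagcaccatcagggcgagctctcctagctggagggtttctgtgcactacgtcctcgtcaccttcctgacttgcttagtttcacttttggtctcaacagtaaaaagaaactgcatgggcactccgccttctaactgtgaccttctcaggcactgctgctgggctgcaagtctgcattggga
Tnfrsf14, chr4:154928028-154928327, minus strand: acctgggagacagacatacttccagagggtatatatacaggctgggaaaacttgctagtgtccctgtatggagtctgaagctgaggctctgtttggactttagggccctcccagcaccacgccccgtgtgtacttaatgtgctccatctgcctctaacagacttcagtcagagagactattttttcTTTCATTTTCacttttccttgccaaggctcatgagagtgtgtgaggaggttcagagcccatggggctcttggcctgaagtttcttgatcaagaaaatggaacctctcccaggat
Fas, chr19:34290409-34290708, plus strand: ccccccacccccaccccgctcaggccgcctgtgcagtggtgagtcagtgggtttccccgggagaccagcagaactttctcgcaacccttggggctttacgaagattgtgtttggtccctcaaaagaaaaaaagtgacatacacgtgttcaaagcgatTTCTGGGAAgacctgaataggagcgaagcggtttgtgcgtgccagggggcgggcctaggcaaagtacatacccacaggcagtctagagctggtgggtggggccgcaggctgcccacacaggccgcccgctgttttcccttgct
Tnfrsf1a, chr6:125349473-125349772, plus strand: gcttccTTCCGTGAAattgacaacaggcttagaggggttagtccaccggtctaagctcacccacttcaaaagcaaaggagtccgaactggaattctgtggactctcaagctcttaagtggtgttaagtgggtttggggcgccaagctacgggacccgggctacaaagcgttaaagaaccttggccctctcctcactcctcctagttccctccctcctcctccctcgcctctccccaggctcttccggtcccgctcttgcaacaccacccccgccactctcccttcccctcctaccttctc
The start used was the outermost one of the RefSeq gene in 17 of the 33 windows, those of Tnfsf10 and Tnfrsf1a among them, and lay inside the gene in 16, by 543 bases for Tnfrsf14 and by 12 for Fas. Counting the base at that start as 1, the ISRE core of Tnfrsf14 lay on the opposite strand at positions -64 to -55, and thus within the RefSeq gene, the GAS of Fas at -93 to -85 and that of Tnfrsf1a at -244 to -236. Members that did not rise also held such letters. An ISRE core stood in the promoters of Tnfrsf1b, Tnfrsf17 and Tnfsf13b, and a GAS in those of Lta, Ltb, Tnfrsf9, Tnfrsf18, Tnfrsf19, Tnfrsf25 and Tnfrsf1b.

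Tnfsf10 (transcript cluster 6896353) encodes TRAIL, a ligand that triggers apoptosis through death domain receptors, and its promoter is the first printed above. The level on the 0 h arrays was 5.34 and 4.74. It was 7.50 and 7.45 at 1 h, then 9.49 and 9.11 at 2 h, then 10.91 and 10.94 at 4 h. From there it went down to 7.87 and 7.94 at 8 h and to 5.90 and 5.60 at 24 h. The arrays of each time formed a step of their own, with no overlap between successive times. The means at 0 h of 4 risen members, Tnfsf10 (5.04), Tnfsf15 (5.17), Tnfsf18 (4.58) and Fas (5.72), lay below the array medians and within the 4.15 to 6.05 that the median levels of markers of the other cell types spanned. The 0 h means of Cd40 (6.02) and Relt (5.965) lay within that span too, though above the array medians. None of these starts is shown to be above background, and the folds given for these genes are ratios of RMA values. The change of Tnfsf10 from 0 h was 2.44 at 1 h (5.41-fold, SE 0.21), 4.26 at 2 h (19.2-fold), 5.89 at 4 h (59.1-fold, adjusted p = 1.07e-06) and 2.87 at 8 h (7.29-fold, adjusted p = 0.000158). Every step between successive times was called too, among them the fall from 4 to 8 h, 8.11-fold (adjusted p = 0.000344). At 24 h both arrays still lay above both at 0 h, by 0.71 (1.64-fold), which did not pass (adjusted p = 0.169). The steps from 1 to 2 h and from 2 to 4 h were lost without array 5 or 8 and without array 15 or 16, respectively (adjusted p up to 0.103 and 0.0842).

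Tnfsf8, the CD30 ligand, is a membrane ligand best known from lymphocytes. Its transcript cluster, 6922324, stood at 6.55 and 6.32 at 0 h, at 7.11 and 7.10 at 1 h, and at 8.12 and 7.79 at 2 h. It reached 9.35 and 9.23 at 4 h, came back to 7.86 and 7.97 at 8 h and ended at 6.87 and 6.82 at 24 h. All 10 treated arrays lay above both 0 h arrays. The change was 1.52 at 2 h (adjusted p = 0.000582), 2.86 at 4 h (7.24-fold, SE 0.14, adjusted p = 6.38e-06) and still 1.48 at 8 h (adjusted p = 0.000668). The rises from 1 to 2 h and from 2 to 4 h (0.85 and 1.34, adjusted p = 0.0463 and 0.0038) and the falls from 4 to 8 h and from 8 to 24 h (-1.38 and -1.07, adjusted p = 0.00172 and 0.00982) were called. The first of these 4 was lost when any single array other than 12 was left out (adjusted p up to 0.278), and the last without any of the arrays 17, 18, 22 and 23 (adjusted p up to 0.109).

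Tnfsf15, a ligand of the death receptor Tnfrsf25 known from endothelial and myeloid cells, rose less. Levels of its transcript cluster, 6922317, were 5.26 and 5.08 at 0 h, then 5.79 and 5.75 at 1 h, then 6.66 and 6.47 at 2 h. They were 6.70 and 7.05 at 4 h, then 5.95 and 5.82 at 8 h, then 5.58 on both arrays at 24 h. Again all treated arrays lay above those at 0 h. The change was 1.40 at 2 h (2.63-fold, adjusted p = 0.00115), 1.71 at 4 h (3.26-fold, SE 0.14, adjusted p = 0.000169) and 0.72 at 8 h (1.64-fold, adjusted p = 0.0418). The call at 8 h was lost without any of arrays 2, 4, 5, 8, 17, 18, 22 and 23 (adjusted p up to 0.27). From 2 to 4 h the step of 0.31 was not called (adjusted p = 0.367), and the fall from 4 to 8 h was (-0.99, adjusted p = 0.00711), though not without array 16 or 23 (adjusted p up to 0.0733).

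Tnfsf18, the GITR ligand, co-stimulates T cells through Tnfrsf18. On the arrays of 0 h its level (transcript cluster 6754537) was 4.80 and 4.35, and at 1 h it was 5.78 and 5.91. The arrays of 2 h read 6.84 and 6.05 and those of 4 h 6.97 and 6.85. Those of 8 h read 5.26 and 5.70, and those of 24 h read 6.03 and 5.73. The treated arrays lay above both 0 h arrays at all times, and at 2 h array 12 was the lower of the pair. The change was 1.87 at 2 h (adjusted p = 0.0106, and 0.0817 without array 4) and 2.34 at 4 h (5.05-fold, SE 0.28, adjusted p = 0.0014). The fall from 4 to 8 h was called (-1.43, adjusted p = 0.0283) but was lost without any array of 1, 4 or 8 h (adjusted p up to 0.188). Its course then differed in shape from those of Tnfsf10 and Tnfsf8, with a mean at 24 h of 5.88 above the 5.48 of 8 h, although that step of 0.40 did not pass (adjusted p = 0.708). The difference of 1.31 from 0 h at 24 h (2.47-fold) was not called (adjusted p = 0.0663), and it was called without the 2 h arrays, an alternative chosen after the data were seen (adjusted p = 0.0219).

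Tnf, the founding ligand and a main product of activated macrophages, had its lowest mean at 1 h and its highest at 4 h. Its transcript cluster (6855087) read 9.85 and 9.80 at 0 h, then 9.30 and 9.11 at 1 h, then 9.91 and 9.66 at 2 h. It read 10.63 and 10.71 at 4 h, then 9.46 and 9.61 at 8 h, then 9.62 and 9.36 at 24 h. Only the 4 h arrays lay above both 0 h arrays, those of 1, 8 and 24 h lay below both, and those of 2 h overlapped them. The change at 1 h, -0.62, was not called (adjusted p = 0.168). That at 4 h was 0.85 (1.8-fold, SE 0.14, adjusted p = 0.00708), and it was lost without array 16 (adjusted p = 0.0595). Compared directly, the 4 h arrays were above those of 1 h by 1.47 (2.76-fold, adjusted p = 0.000625) and those of 2 h by 0.89 (adjusted p = 0.0166, lost without array 15 or 16 with adjusted p up to 0.128), and the 8 h arrays were below those of 4 h by 1.14 on the log2 scale (change -1.14, adjusted p = 0.00374).

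**Figure D2:**
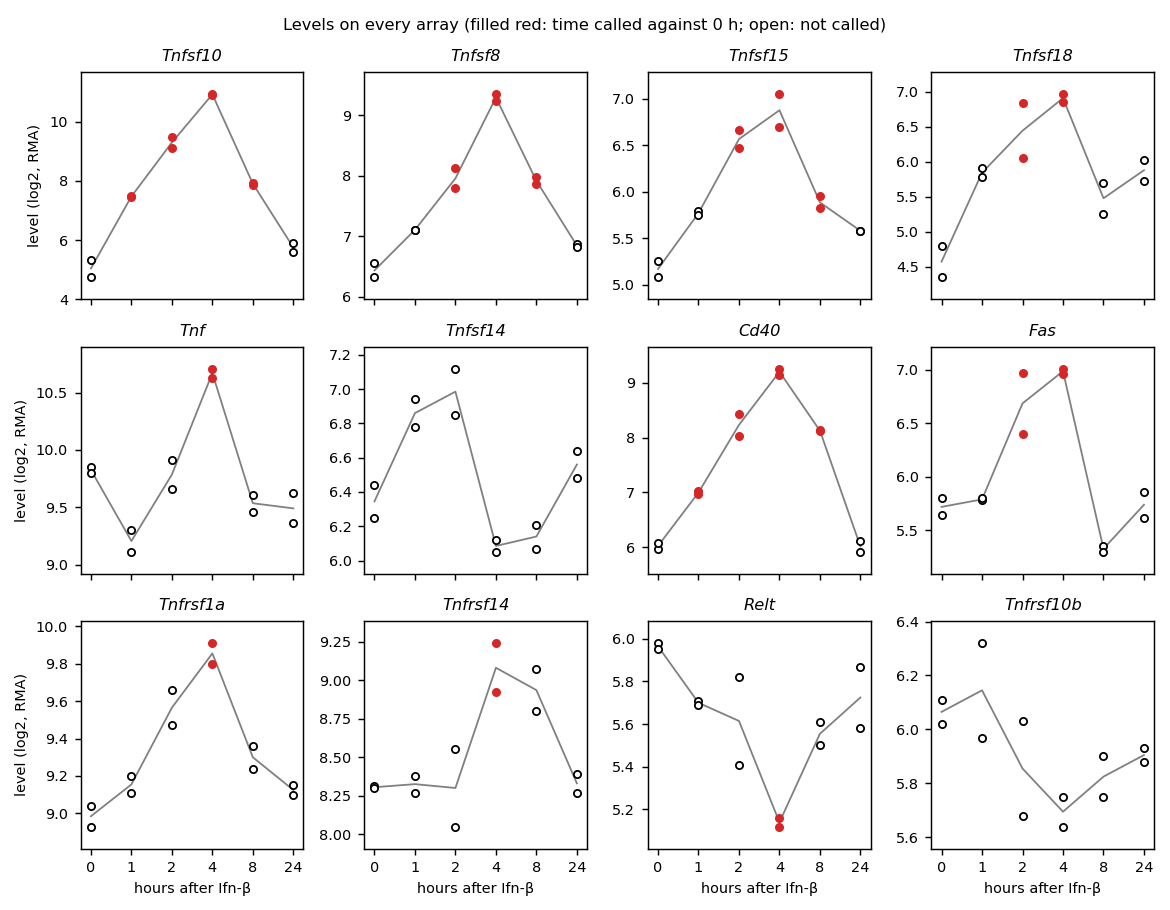
Log2 RMA level of 12 genes on each array (points) with the mean of each time (line), against hours after Ifn-β on an evenly spaced axis, each panel with its own vertical scale. Points of times called against 0 h are filled in red. The panels show the common peak at 4 h, the low of Tnf at 1 h, the higher early and lower later levels of Tnfsf14, and the fall of Relt, with Tnfrsf10b as the receptor of Tnfsf10 that was not called.

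Tnfsf14, known as LIGHT, binds Tnfrsf14 and Ltbr, and was the 1 member called between successive times but not against 0 h. The arrays of 0 h read 6.44 and 6.25 (transcript cluster 6856288), those of 1 h 6.94 and 6.78, and those of 2 h 7.12 and 6.85. At 4 h they read 6.12 and 6.05, at 8 h 6.07 and 6.21, and at 24 h 6.64 and 6.48. The arrays of 1 and 2 h thus lay above both at 0 h and those of 4 and 8 h below both. The difference of 0.64 from 0 h at 2 h was just short of the threshold (adjusted p = 0.0555, and 0.0392 without array 12). The fall from 2 to 4 h was called (-0.90, SE 0.13, adjusted p = 0.0144) and was lost without array 15 or 16 (adjusted p up to 0.117).

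Other ligands showed smaller differences that the test against 0 h did not call. Tnfsf9, which co-stimulates T cells through Tnfrsf9, read 7.38 and 7.36 at 0 h and 8.09 and 7.97 at 1 h, a difference of 0.66 (adjusted p = 0.391, and 0.0228 without the 2 h arrays). Between 1 and 4 h it fell (-0.79, adjusted p = 0.045). Tnfsf4, the ligand of Tnfrsf4, read 4.36 and 4.32 at 0 h and 5.22 and 4.76 at 4 h, a difference of 0.65 (adjusted p = 0.0556), and from 1 to 4 h it rose (adjusted p = 0.0455). Cd40lg, the partner of Cd40 and a product mainly of activated T cells, read 2.99 and 3.08 at 0 h and between 3.48 and 4.13 on every treated array. That made differences of 0.66 to 0.87 (adjusted p = 0.0968 at 4 h and 0.101 at 24 h), so the 0 h arrays lay apart from all others without a call. Every array of Cd40lg and of Tnfsf4 read below the array medians, and neither gene is shown to be above background. Tnfsf13b, the B cell survival factor BAFF, read 6.90 and 6.73 at 0 h and 7.32 and 7.53 at 8 h (0.61, adjusted p = 0.141). Lta, Ltb, Fasl, Cd70 and Tnfsf11 had no call in any comparison.

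Cd40, the receptor through which T cells license macrophages and B cells, rose most of the measured receptors. Its arrays (transcript cluster 6883132) read 5.96 and 6.08 at 0 h, then 6.97 and 7.02 at 1 h, then 8.43 and 8.03 at 2 h. They read 9.14 and 9.26 at 4 h, then 8.14 and 8.11 at 8 h, then 6.11 and 5.91 at 24 h. The arrays of 1 to 8 h all lay above those of 0 h, and those of 24 h overlapped them. The change was 2.21 at 2 h (4.63-fold), 3.18 at 4 h (9.06-fold, SE 0.14) and 2.11 at 8 h (4.3-fold, adjusted p = 0.000117), and at 24 h it was -0.01 (95% interval -0.34 to 0.32). The fall from 8 to 24 h was 4.33-fold (adjusted p = 0.000432), and that from 4 to 8 h was 2.11-fold (adjusted p = 0.00575, up to 0.0611 without array 16, 18 or 23). The call at 1 h was the least firm, and it was lost without any array other than 10 and 12 (adjusted p up to 0.187).

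Fas, a death domain receptor, rose at 2 and 4 h and fell again by 8 h. Its arrays (transcript cluster 6869310) read 5.80 and 5.64 at 0 h, then 5.78 and 5.80 at 1 h, then 6.97 and 6.40 at 2 h. They read 6.96 and 7.01 at 4 h, then 5.36 and 5.30 at 8 h, then 5.86 and 5.62 at 24 h. The arrays of 2 and 4 h lay above both at 0 h and those of 8 h below both. The change was 1.27 at 4 h (2.4-fold, SE 0.18, adjusted p = 0.00359), and the fall from 4 to 8 h was 3.15-fold (change -1.66, adjusted p = 0.00246). At 8 h the difference from 0 h, -0.39, did not pass (adjusted p = 0.388). The call at 2 h (0.97, adjusted p = 0.0322) rested on unlike arrays, with array 12 the lower, and it was lost without any array of another time (adjusted p up to 0.167).

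Tnfrsf1a, the death domain receptor of Tnf found on most cells, read 8.93 and 9.04 at 0 h, then 9.20 and 9.11 at 1 h, then 9.66 and 9.47 at 2 h (transcript cluster 6949865). It read 9.80 and 9.91 at 4 h, then 9.24 and 9.36 at 8 h, then 9.15 and 9.10 at 24 h, so all treated arrays lay above both at 0 h. The change was 0.87 at 4 h (1.83-fold, SE 0.11, adjusted p = 0.00207). At 2 h its change of 0.58 had an adjusted p of 0.036 and missed the 1.5-fold limit. Tnfrsf1b, the other receptor of Tnf, which lacks a death domain, read 10.38 and 10.34 at 0 h and 10.10 on both arrays at 4 h, a difference of -0.26 (95% interval -0.49 to -0.03, adjusted p = 0.158).

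Tnfrsf14, the receptor of Tnfsf14, was called at 4 h alone. Its transcript cluster (6927231) read 8.31 and 8.30 at 0 h, then 8.38 and 8.27 at 1 h, then 8.55 and 8.05 at 2 h. It read 8.92 and 9.24 at 4 h, then 9.07 and 8.80 at 8 h, then 8.27 and 8.39 at 24 h, so only the arrays of 4 and 8 h lay above both at 0 h. The change was 0.78 at 4 h (1.71-fold, SE 0.18, adjusted p = 0.0363), and a difference of 0.63 at 8 h was not called (adjusted p = 0.162). The call at 4 h was lost without any array but 10 and 12 (adjusted p up to 0.201).

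Relt, a TNF receptor family member expressed in haematopoietic cells, was the 1 member that fell. It read 5.98 and 5.95 at 0 h (transcript cluster 6969832), 5.71 and 5.69 at 1 h, then 5.82 and 5.41 at 2 h. It read 5.12 and 5.16 at 4 h, then 5.50 and 5.61 at 8 h, then 5.87 and 5.58 at 24 h. All 10 treated arrays lay below both at 0 h, the 4 h arrays lowest. The treated means, 5.14 to 5.725, lay below the array medians and are not shown to be above background. The change at 4 h was -0.83 (1.77-fold lower, SE 0.15, adjusted p = 0.0123). It was lost without either array of 0 or 4 h (adjusted p up to 0.0855).

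The remaining 17 receptors were never called. Tnfrsf26, a mouse receptor of the family, read 8.70 and 8.33 at 0 h and 9.35 and 9.12 at 24 h, a difference of 0.72 (adjusted p = 0.115) that put its highest values at the end of the course. Tnfrsf12a, Tnfrsf21, Tnfrsf11a, Tnfrsf11b, Tnfrsf13b, Tnfrsf17, Tnfrsf19, Eda2r and Ngfr showed no call in any comparison either. Over the 26 members not called against 0 h or between successive times, and over the 5 times, the 130 changes ran from -0.37 (Tnfrsf10b at 4 h) to 0.87 (Cd40lg at 24 h), and the lowest adjusted p was 0.0556. Only 9 of the 130 reached 0.5 in size. With 2 arrays a time, changes of that size can be missed, and a gene without a call is not shown to be unchanged.

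The 9 members that rose were next compared with members they bind, in a chosen list of 15 ligand and receptor pairs with both sides measured. The list is not every possible pair, and Tnf, Tnfsf11 and Tnfsf13b recur in it. At 4 h, 24.3% of the members and 3.59% of all transcript clusters had risen, and no expected split of the pairs was computed. Of the 15 pairs, 1 had both sides called at 4 h, Tnf and Tnfrsf1a. The ligand alone was called in 5 pairs, the receptor alone in 3, and neither in 6. TRAIL rose by 5.89 on the log2 scale, while Tnfrsf10b, the death domain receptor of TRAIL in the mouse, read 6.11 and 6.02 at 0 h and 5.64 and 5.75 at 4 h, a difference of -0.37 (95% interval -0.73 to -0.01, adjusted p = 0.203). Tnfrsf8, Tnfrsf18 and Tnfrsf25, the receptors of Tnfsf8, Tnfsf18 and Tnfsf15, differed by 0.18, 0.15 and 0.07 (adjusted p = 0.666, 0.439 and 0.806). On the other side, Cd40lg differed by 0.67 where Cd40 rose (adjusted p = 0.0968), and it was called without the arrays of 8 and 24 h and with only transcript clusters with 1 symbol (adjusted p = 0.0414 and 0.0437), which made both sides of that pair called. Cd40lg read below the array medians on every array and is not shown to be above background. Fasl differed by 0.03 (95% interval -0.38 to 0.43) where Fas rose, and Tnfsf14 by -0.26 (adjusted p = 0.297) where Tnfrsf14 rose.

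**Figure D3:**
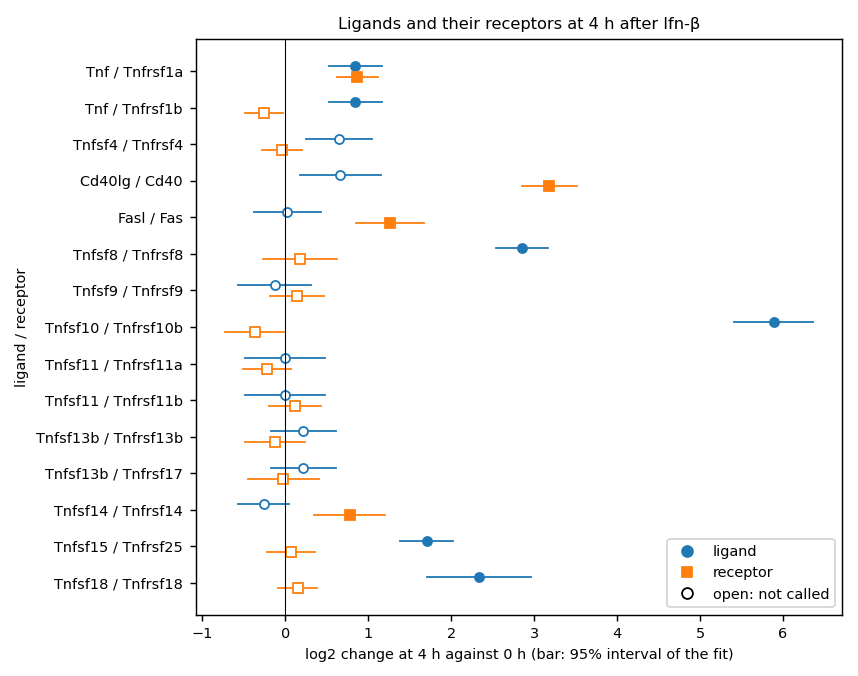
Log2 change at 4 h against 0 h of the ligand (circle) and the receptor (square) of 15 pairs, with the 95% interval of the fit as a bar. Filled symbols are called and open symbols are not. In 8 pairs 1 side is called and the other is not, and both are called for Tnf and Tnfrsf1a.

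Several members lie side by side in the genome, as RefSeq orders its genes (GRCm38.p6). In 9 pairs of members there was no protein-coding gene between the 2. In 1 of these, Tnfsf15 and Tnfsf8 on chromosome 4, both genes rose at 4 h. In 4 pairs 1 gene rose and the other had no call, since Tnfsf18 rose between Tnfsf4 and Fasl on chromosome 1 and Tnf rose between Ltb and Lta on chromosome 17. Neither gene was called at 4 h in the other 4, Tnfsf9 and Cd70, Cd70 and Tnfsf14, Tnfrsf1b and Tnfrsf8, and Tnfrsf4 and Tnfrsf18.

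Between successive times, the members that moved did so in step with the course above, apart from Tnfsf14. From 1 to 2 h limma called 3 up (Cd40, Tnfsf10 and Tnfsf8, 8.11%, against 0.369% of all transcript clusters) and 0 down (against 0.0814%, with 1 member by the same fold and an unadjusted p under 0.05). From 2 to 4 h 4 rose (those 3 and Tnf, 10.8%, against 1.38%) and 1 fell (Tnfsf14, 2.7%, against 0.789%). From 4 to 8 h 7 of the 37 fell (18.9%, against 1.62%). These were all of the 9 risen members except Tnfrsf1a, whose fall of -0.56 was below the fold limit (adjusted p = 0.0314), and Tnfrsf14 (-0.15, adjusted p = 0.839). The 4 h arrays by which the 9 were picked enter this step, so a fall is partly built in. Limma called 0 members up in that step, where 1.68% of transcript clusters rose, and 0 passed by the same fold and an unadjusted p under 0.05. From 8 to 24 h Cd40, Tnfsf10 and Tnfsf8 fell further (8.11%, against 1%). Limma called 0 up, against 0.21%, and 0 passed by the same fold and an unadjusted p under 0.05. Without array 5 or 8, 0 members rather than 3 rose from 1 to 2 h. Without array 15 or 16, 1 rather than 4 rose and 0 rather than 1 fell from 2 to 4 h, and without array 16 or 23, 4 rather than 7 fell from 4 to 8 h.

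The proteins that receptors of this family use inside the cell were followed as another list, of which 39 of 49 genes were measured. At 4 h, 8 of the 39 had risen (20.5%) and 3 had fallen (7.69%), against 3.59% and 3.95% of all transcript clusters. The fallen were 0 without array 2, 15 or 16. At 1 h 1 had risen (2.56%, against 0.467%), at 2 h 4 (10.3%, against 1.54%, and 2 without array 4) and at 8 h 2 (5.13%, against 1.5%). At 24 h limma called 0 in either direction, and 0 passed by the same fold and an unadjusted p under 0.05.

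In the death branch, 4 of the 5 measured genes rose at 4 h (80%, against 3.59% of all transcript clusters) and 0 fell (against 3.95%). Casp8, the initiator caspase of the death receptors, read 10.55 and 10.28 at 0 h and 11.58 and 11.36 at 4 h (1.06, 2.08-fold, adjusted p = 0.00142). Cflar, the caspase-like protein that restrains Casp8, rose by 1.20 (adjusted p = 0.00143), and Bid, which Casp8 cleaves to reach mitochondria, by 0.77 (adjusted p = 0.0027). Mlkl, the effector of necroptosis, read 8.61 and 8.29 at 0 h, then 9.51 and 9.26 at 2 h, then 10.42 and 10.45 at 4 h. It still read 10.30 and 10.35 at 8 h and came down to 8.91 and 8.79 at 24 h. Its changes of 1.99 at 4 h and 1.88 at 8 h were both called (3.96-fold and 3.67-fold, adjusted p = 5.88e-05 and 0.000163). Between those times it differed by -0.11, and it fell from 8 to 24 h (-1.48, adjusted p = 0.00214). Ripk3, the kinase that activates Mlkl, differed by -0.11 at 4 h (adjusted p = 0.715).

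Among the 10 adaptors measured, 2 rose at 4 h (20%, against 3.59%) and 0 fell (against 3.95%). Daxx, which binds the tail of Fas, went from 8.32 and 8.10 at 0 h to 9.72 and 9.78 at 1 h, to 11.04 and 10.99 at 2 h, and to 11.37 and 11.43 at 4 h (9.13-fold). It was at 9.71 and 9.70 at 8 h and at 8.78 and 8.71 at 24 h, with all treated arrays above those of 0 h. Traf5, an adaptor of Cd40, Tnfrsf14 and Tnfrsf8 among others, rose by 0.69 (adjusted p = 0.0434), a call lost without any array but 10 and 12 (adjusted p up to 0.193). Traf2 and Fadd differed by 0.40 and -0.29 (adjusted p = 0.188 and 0.372). Siva1, which binds the tail of Cd27, read 7.49 and 7.75 at 0 h and 6.40 and 6.53 at 4 h, a difference of -1.16 that was not called (adjusted p = 0.0919).

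In the linear ubiquitin complex that modifies receptor complexes, Rnf31 (HOIP), the catalytic subunit, rose and the other subunits showed no call. Rnf31 read 7.89 and 7.87 at 0 h, then 8.09 and 7.94 at 1 h, then 8.40 and 8.21 at 2 h, then 9.04 and 9.19 at 4 h, with 8.17 and 8.30 at 8 h. Its change at 4 h was 1.24 (2.35-fold, adjusted p = 0.000474). Rbck1 and Sharpin differed by 0.08 and 0.05 (95% interval up to 0.36 and 0.31). Otulin, which removes linear ubiquitin chains, went the other way. It read 8.93 and 8.81 at 0 h and 8.12 and 8.07 at 4 h (-0.78, 1.71-fold lower, adjusted p = 0.00835), and by 8 h it was back at 8.86 and 9.04 (adjusted p = 0.00985 against 4 h). That fall was lost without array 2, 15 or 16 (adjusted p up to 0.0705).

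Otulin belonged to the 8 measured brakes on signalling, of which 3 fell at 4 h (37.5%, against 3.95% of all transcript clusters) and 0 rose (against 3.59%). The others were Tnip1 (-0.70, adjusted p = 0.0299) and Tnip3 (-0.64, adjusted p = 0.0262), proteins that bind Tnfaip3 and ubiquitin chains and restrain NF-κB. The call of Tnip1 was lost without array 2, 4, 5, 8, 15, 16, 17 or 22 (adjusted p up to 0.18) and that of Tnip3 without array 2, 15, 16, 18 or 23 (adjusted p up to 0.176). All 3 had risen again between 4 and 8 h. Tnfaip3, known as A20, differed by -0.08 (adjusted p = 0.826). Nfkbia, the inhibitor that holds NF-κB in the cytoplasm, read 8.79 and 8.88 at 0 h, then 8.26 and 8.20 at 1 h, then 8.38 and 7.83 at 2 h. It then read 9.14 and 9.40 at 4 h, so that the step from 2 to 4 h was a rise of 1.17 (adjusted p = 0.0196) although neither end was called against 0 h. Nfkbia and Tnf both had arrays of 1 h below and of 4 h above both at 0 h. They differed at 2 h, when the arrays of Nfkbia lay below both at 0 h and those of Tnf overlapped them.

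Of the 3 measured genes for the release of ligands from the membrane, 1 rose at 4 h (33.3%, against 3.59% of all transcript clusters) and 0 fell (against 3.95%). The risen gene was Rhbdf2, which carries the protease Adam17 to the surface where it sheds Tnf. It read 7.78 and 7.67 at 0 h, then 8.76 and 8.65 at 2 h, then 8.85 and 8.98 at 4 h, and was back at 7.82 and 7.87 at 8 h. The change was 0.98 at 2 h and 1.19 at 4 h (1.97-fold and 2.28-fold, adjusted p = 0.00204 and 0.000305). The protease Adam10 and the inhibitor Timp3 differed by -0.04 and 0.06 at 4 h. Adam17 itself was not among the measured genes.

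**Figure D4:**
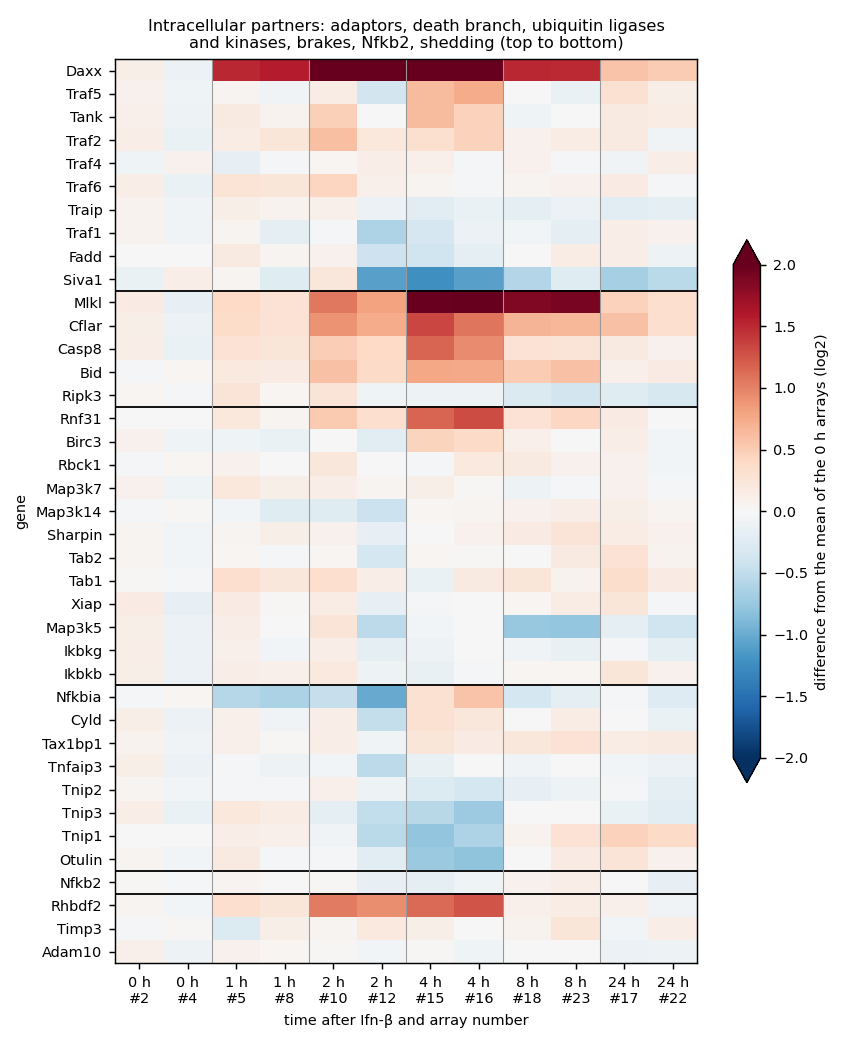
Level of each of the 39 measured intracellular partners on each of the 12 arrays, as the difference from the mean of the 2 arrays at 0 h (log2, colour, which saturates at 2 in either direction). Rows are grouped as in the title and ordered by their change at 4 h. Daxx, Mlkl, Cflar, Casp8, Rnf31 and Rhbdf2 are red at 4 h, Otulin, Tnip1 and Tnip3 are blue there, and Mlkl is about as red at 8 h as at 4 h.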

How the data were processed

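The deposited values were log2 levels at the gene level of the Affymetrix Mouse Exon 1.0 ST array, which the authors computed in the Affymetrix Expression Console by RMA, that is, with background correction, quantile normalization across arrays and a median polish of the probes. Versions and the genome build of the array annotation are not given in the sources used here. The 12 arrays were used as deposited. Genes were named with the platform annotation supplied with the data, and all 37 members matched RefSeq by gene ID. The members and the lists of partners and markers were chosen with earlier results of these data known.

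All 12 arrays and 6 times entered 1 linear model (limma 3.58.1, functions lmFit and eBayes, under R 4.3.3) with 6 residual and 2.31 prior degrees of freedom. Tests were two-sided, with p adjusted by Benjamini-Hochberg within each comparison over 23332 transcript clusters. Calls needed a 1.5-fold change with an adjusted p under 0.05. The procedure was tested on simulated data. Values on every array are given for members called at any time against 0 h or between successive times, other members are given by role, counts and ranges, and the partners named are those called and those of the same complex. Beyond that rule, Siva1, Traf2, Fadd, Tnfaip3, Adam10 and Timp3 were named after their values were seen. Labels give no pairing or batch.

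As alternatives, calls were made by unadjusted p, with no fold limit and with a 2-fold limit, and fits were made with only the 2 groups compared, with array weights, with the trend and robust options of eBayes, after median centring, after quantile normalization again, without the lowest 30%, without the arrays of 8 and 24 h, with only transcript clusters with 1 symbol, with every transcript cluster of a member and without each array in turn. A fit without the 2 h arrays was chosen after the data were seen. Tables and plots were made with Python 3.11.15, pandas 2.3.3, scipy 1.17.1 and matplotlib 3.10.9.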

Additional observations from a re-analysis of the deposited data

Results flagged for a closer look

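A few members lay above both 0 h arrays at 1 time and below both at another, with a called difference between those times. The differences between the times were tested directly, and the cause was not tested. Tnf was below its start at 1, 8 and 24 h and above it at 4 h, and the 4 h level differed by 1.47 from that of 1 h (adjusted p = 0.000625), while 8 h differed from 4 h by -1.14 and 24 h from 4 h by -1.18 (adjusted p = 0.00374 and 0.00137). Fas was above its start at 4 h and below it at 8 h, a difference of -1.66. Tnfsf14 was above its start at 1 and 2 h and below it at 4 h, with differences of -0.78 from 1 h and -0.90 from 2 h (adjusted p = 0.0118 and 0.0144). Tnfsf9 was above its start at 1 h and slightly below it at 4 h, a difference of -0.79 (adjusted p = 0.045).

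A transcript cluster outside the members, whose annotation names both the DNA repair gene Neil3 and Tnfrsf13c, the receptor of BAFF, was called down from 4 h on. It read 8.95 and 8.57 at 0 h, then 8.11 and 7.87 at 4 h, then 7.84 and 7.88 at 8 h, then 7.67 and 7.64 at 24 h, with differences from 0 h of -0.77, -0.90 and -1.11. Which of the 2 genes its probes measured cannot be told from these files, so no direction is given for Tnfrsf13c.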

How the results depend on the processing

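No alternative turned the direction of any of the 22 calls of members against 0 h or the 18 between successive times. Of the 22, 10 kept their call under every alternative and 15 with any array left out. In what follows, risen and fallen members are those called against 0 h unless said otherwise. By an unadjusted p with the 1.5-fold limit kept, 7 members had risen and 1 had fallen at 1 h (2 and 0 in the report). By that rule 8 had risen at 8 h (4) and 4 at 24 h (0), and from 1 to 2 h 5 rose (3) and 1 fell (0). At a 2-fold limit 1 had risen at 1 h, 0 members and 0 partners (3) had fallen at 4 h, and from 2 to 4 h 2 rose (4) and 0 fell (1). A fit of only the 2 groups compared left 0 risen at 1 h, 2 at 2 h (6) and 2 at 8 h, 0 rising from 1 to 2 h, 0 rising and 0 falling from 2 to 4 h, and 0 falling from 8 to 24 h (3). This fit has fewer arrays. At 24 h 1 member had risen with eBayes with trend and robust, 2 with array weights, 2 with quantile normalization again, 1 with the lowest 30% left out, 2 with only transcript clusters with 1 symbol and 1 without the 2 h arrays. With array weights 0 rose from 1 to 2 h and 0 fell from 2 to 4 h. With quantile normalization again 1 had fallen at 1 h (Tnf) and 6 rose from 1 to 2 h, and with only transcript clusters with 1 symbol 5 did. Without the 8 h and 24 h arrays 1 had risen at 1 h, 1 partner had fallen at 4 h and, as counted after the data were seen, 0 rose from 1 to 2 h, 1 rose and 0 fell from 2 to 4 h. The causes were not tested.

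With each array left out in turn, the array left at that time was taken to have the spread of the rest. The number of risen members then ranged from 1 to 3 at 1 h and from 4 to 8 at 2 h. It ranged from 8 to 9 at 4 h, from 3 to 4 at 8 h and from 0 to 1 at 24 h, while the number of fallen members was 0 to 1 at 4 h and 0 at the other times. Between successive times, 0 to 4 rose and 0 to 1 fell from 1 to 2 h, 1 to 5 rose and 0 to 2 fell from 2 to 4 h, 4 to 7 fell from 4 to 8 h, and 2 to 3 fell from 8 to 24 h. Of the partners, 7 to 8 had risen and 0 to 4 had fallen at 4 h. No paired analysis was possible because the columns carry no replicate numbers shared between times. With 2 arrays a time the spread is poorly known, and genes without a call cannot be taken as unchanged.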

Other observations

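At 24 h, 15 of the 37 members lay above both 0 h arrays, 6 lay below both and 16 overlapped them. The earlier times, in order, had 13, 14, 16 and 14 members above both. With 2 arrays a time such separation can arise without a change, and no count over all transcript clusters was made beside it. Of the 15, limma called 0 (4 by the same fold and an unadjusted p under 0.05). The largest differences were those of Tnfsf18 (1.31, adjusted p = 0.0663), Cd40lg (0.87, adjusted p = 0.101), Tnfrsf26 (0.72, adjusted p = 0.115), whose levels at 24 h were 9.35 and 9.12, and Tnfsf10 (0.71, adjusted p = 0.169). Tnfsf18 was called at 24 h with array weights, with eBayes with trend and robust, with the lowest 30% left out, with quantile normalization again and with only transcript clusters with 1 symbol (adjusted p between 0.0197 and 0.0413). Cd40lg, whose arrays all read below the array medians, was called at 24 h with only transcript clusters with 1 symbol (adjusted p = 0.0407). Tnfrsf26 was called then with array weights and with quantile normalization again (adjusted p = 0.0496 and 0.0111).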
